A study of Mus musculus with 14 samples.

Results

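The first day of differentiation was followed in C2C12 cells in which Klf5, a Krüppel-like zinc-finger transcription factor, had been knocked down. The library made on day 1 was compared with the library made on day 0, over every transcript whose mean FPKM value in the 8 RNA-seq libraries was at least 10, which kept 11591 of the 24016 transcripts in the table. C2C12 is a mouse myoblast line that was cultured in medium with fetal bovine serum and then moved to differentiation medium with horse serum. Both libraries came from cells transfected with an siRNA pool against Klf5 (siKlf5), which lowers the mRNA and leaves the gene in place, and poly(A) RNA was sequenced from them. The matching pair of libraries from cells given control siRNA (siCtrl) serves as the reference, and it shares no library with the siKlf5 pair. Each siRNA and day had 1 library, so there was no replicate error and no test was possible.

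When serum is withdrawn, myoblasts leave the cell cycle and switch on muscle genes before they fuse into multinucleated myotubes. The basic helix-loop-helix factor MyoD is present already in dividing myoblasts, and myogenin follows as cells commit to differentiate. Contractile proteins such as embryonic myosin heavy chain accumulate after that, while genes for DNA synthesis and mitosis are shut off. Id proteins hold back this step by binding the partners that MyoD needs, and they decline as it begins.

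FPKM values in this table were scaled to a total of 10000000 reads, a larger total than is customary. A change is given as log2 of the day 1 value over the day 0 value, with 0.1 added to both, and "rose" and "fell" mean a change of at least 2-fold, without a test. The reads behind each value were recovered from the exon length, and the 95% exact interval beside a log2 change was computed from them and covers counting error only. The siKlf5 libraries held 11136799 reads in exons on day 0 and 8119452 on day 1, within the range of 7850497 to 20301506 over the 8 libraries. Because the cultures were measured in bulk, fewer cells of a type and less RNA per cell cannot be told apart.

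Klf5 itself was low but not constant in the knockdown cells. Its level (NM_009769, chr14:99697910-99712628 of mm9, plus strand) was 35.1 FPKM on day 0 and 160 FPKM on day 1, a 4.54-fold rise (log2 change 2.18, interval 1.41 to 3.03). In siCtrl cells the level was 224 FPKM on day 0 and 381 FPKM on day 1. The knockdown library therefore held 15.7% of the control level on day 0 (interval 9.01% to 25.8%) and 41.9% on day 1 (30.5% to 57%), so Klf5 mRNA stayed below control on both days while it increased. On days 2 and 3 it was 192 and 211 FPKM in siKlf5 cells, against 614 and 933 FPKM in siCtrl cells.

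Over the 11591 transcripts, 900 rose and 819 fell between day 0 and day 1 of the knockdown, which is 7.76% and 7.07% of them. The median log2 change was -0.09, and 90% of the transcripts lay between -1.16 and 1.46. The interval excluded 0 for 640 of the rises and 605 of the falls. In siCtrl cells 674 transcripts rose and 1025 fell, or 5.81% and 8.84%. Rare transcripts moved more often in either direction than common ones. Of those with a mean of 10 to 30 FPKM, 19% rose and 15.4% fell, whereas of the 337 with a mean of at least 1000 FPKM, 7.42% rose and 0.297% fell. Among 244 noncoding transcripts with under 200 bases of exon, 25% rose and 30.7% fell on a median of 3 reads in the lower of the libraries. The changes of rare and very short transcripts thus rest on few reads. Centring both days on the median of all transcripts adds 0.09 to every log2 change in siKlf5 cells and gives 1011 rises and 679 falls, and adds 0.12 in siCtrl cells and gives 794 and 818.

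**Figure D1:**
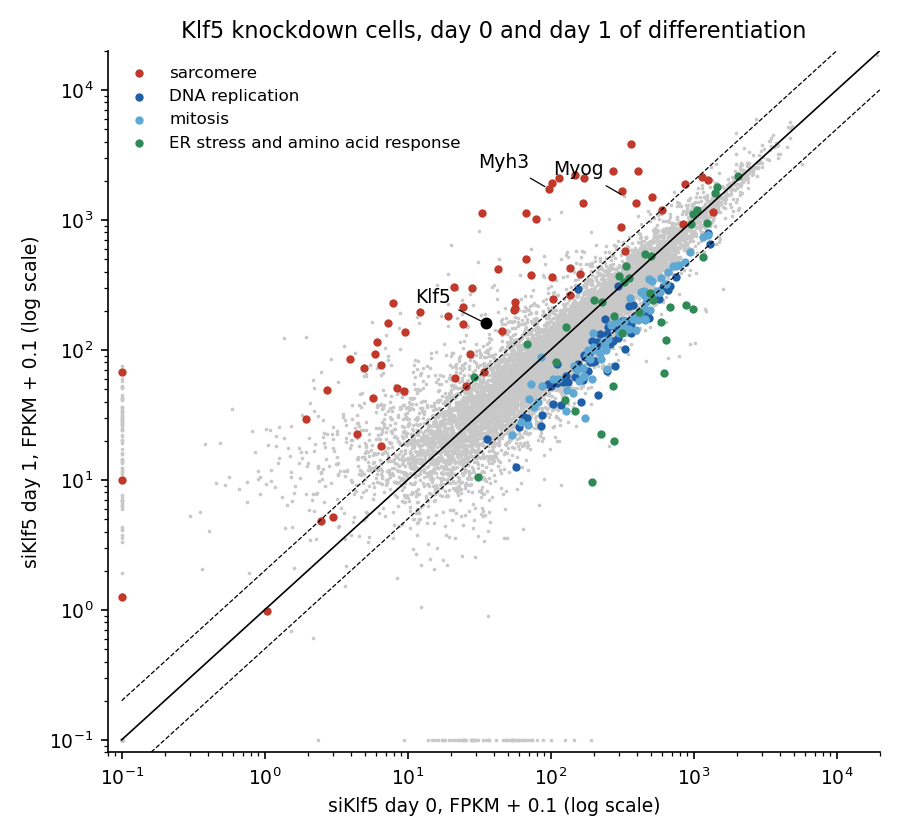
Level of each of the 11591 transcripts in the siKlf5 library of day 0 (x axis) and of day 1 (y axis), in FPKM plus 0.1 on log scales, with the line of equal level and the 2-fold lines dashed. Sarcomere transcripts (red) lie above the upper line for 56 of 66 members, and the transcripts for DNA replication (dark blue) and mitosis (light blue) lie near or under the lower line.

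The muscle program was switched on within the first day in the knockdown cells. Myog, which encodes myogenin (chr1:136186581-136189125 of mm9, plus strand), went from 328 to 1517 FPKM, a 4.63-fold rise (log2 change 2.21, interval 1.94 to 2.49). Myh3, the embryonic myosin heavy chain (chr11:66891802-66915793 of mm9, plus strand), went from 96.4 to 1736 FPKM, an 18.0-fold rise (log2 change 4.17, interval 3.95 to 4.40). Both markers were thus clearly higher on day 1 than counting error allows. In siCtrl cells Myog went from 479 to 1896 FPKM and Myh3 from 103 to 1564 FPKM. Myod1, which marks the lineage before and after commitment, was 398 FPKM on day 0 and 454 FPKM on day 1 and did not move by 2-fold.

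Of 26 expressed myogenic regulators, 6 rose (23.1%, against 7.76% of all) and none fell, with a median log2 change of 0.51. Mef2c, a MADS-box partner of the myogenic factors, went from 20.1 to 53.2 FPKM (log2 change 1.40). Smyd1, a histone methyltransferase of striated muscle, went from 66.0 to 215 FPKM (1.70), and Runx1, a Runt-domain factor, from 104 to 209 FPKM (1.01). Rbfox1, a splicing regulator, had no read on day 0 and 14 FPKM from 76 reads on day 1. A transcript absent from 1 library has no fold, and the lower limit of its counting interval was 1.99 on the log2 scale. Pax7, the satellite cell factor, made the sixth rise, with 9.31 and 18.8 FPKM and an interval that includes 0 (-0.13 to 2.21). It was named after its values were seen.

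Of the 23 lists in the plot of list members, the contractile apparatus had the median furthest from 0. Of 66 sarcomere transcripts, 56 rose (84.8%, against 7.76% of all) and none fell, with a median log2 change of 2.64, or 2.56 with the 3 transcripts absent from a library counted there as having 3 reads. The fast troponin I gene Tnni2 went from 33.1 to 1132 FPKM, a 34.2-fold rise (log2 change 5.09, interval 3.98 to 6.49). Unc45b, a chaperone that folds myosin, went from 7.76 to 231 FPKM (4.88), and cardiac actin Actc1, the main actin of early myotubes, from 101 to 1924 FPKM (4.25). The titin-associated genes Ankrd2 and Trim63 went from 7.19 to 162 FPKM and from 3.88 to 84.8 FPKM. Myoz2, a Z-disc protein, had no read on day 0 and 67.4 FPKM on day 1, a log2 change whose lower counting limit is 2.48. Of the 10 members that stayed within 2-fold, Des, the intermediate filament desmin that myoblasts already make, was 1264 and 2009 FPKM.

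The machinery that couples excitation to contraction followed. Of its 26 transcripts, 17 rose (65.4%, against 7.76% of all) and none fell, with a median log2 change of 1.51. Cacna1s, the voltage sensor of the T-tubule, went from 2.82 to 84.8 FPKM (log2 change 4.86, interval 3.66 to 6.53), and the calcium store protein Casq2 went from 31.5 to 824 FPKM (4.70). Hrc, a calcium-binding protein of the sarcoplasmic reticulum, rose from 22.2 to 293 FPKM and the muscle sodium channel Scn4a from 1.70 to 16.3 FPKM. The release channel Ryr1 and the calcium pump Atp2a1, both named after their values were seen, went from 34.6 to 189 FPKM and from 72.5 to 597 FPKM. Pvalb, a calcium buffer of fast fibres, had no read on day 0 and 60.1 FPKM on day 1, with a lower counting limit of 1.87 for the log2 change. In siCtrl cells Pvalb was 3.44 and 7.92 FPKM.

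Genes of the neuromuscular junction were split. Of 18 transcripts 6 rose (33.3%, against 7.76% of all) and none fell, with a median log2 change of 0.76. The fetal acetylcholine receptor subunit Chrng went from 119 to 1157 FPKM (3.28, interval 2.91 to 3.67), while the delta subunit Chrnd went from 297 to 691 FPKM (1.22). Erbb3, a neuregulin receptor, rose from 17 to 181 FPKM and the adhesion molecule Ncam1 from 150 to 462 FPKM. Lrp4, the agrin receptor, went from 56.0 to 131 FPKM. Colq, the collagen tail of acetylcholinesterase and the sixth rise, had 2.38 and 11.2 FPKM with an interval that includes 0 (-0.16 to 5.53).

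Among genes required for myoblast fusion, those for myomaker and myomixer rose by more than 10-fold. Tmem8c, which encodes myomaker, went from 97.3 to 1008 FPKM (log2 change 3.37, interval 2.89 to 3.89), and Gm7325, which encodes the small fusion protein myomixer, from 16 to 318 FPKM (4.30, 2.85 to 6.29). Itgb1bp2, an integrin-binding chaperone of muscle, went from 3.50 to 107 FPKM. The membrane repair genes Trim72 and Dysf went from 30.9 to 473 FPKM and from 7.53 to 76.4 FPKM. Of the 36 transcripts for fusion and adhesion, 10 rose and 1 fell (27.8% and 2.78%, against 7.76% and 7.07% of all). Their median log2 change was 0.48. The 1 fall was Sgcd, a sarcoglycan, at 27 reads on day 0 and 9 on day 1 with an interval that includes 0.

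Muscle energy genes rose less often than sarcomere genes. Of 30 transcripts, 12 rose, a larger share than the 7.76% of all, with a median log2 change of 0.56. The 2 that fell were 6.67% of the list, near the 7.07% of all transcripts. Creatine kinase Ckm went from 19.9 to 640 FPKM (log2 change 5.00, interval 4.02 to 6.21), glycogen phosphorylase Pygm from 19 to 225 FPKM, the muscle phosphoglycerate mutase Pgam2 from 28.5 to 222 FPKM and myoglobin Mb from 19.2 to 153 FPKM. The fatty acid carrier Fabp3 moved the other way, from 108 to 21.3 FPKM (-2.33, -4.73 to -0.59), and so did hexokinase Hk2, from 253 to 113 FPKM (-1.16). In siCtrl cells Fabp3 was 28.1 FPKM on day 0 and 40.6 FPKM on day 1, so its day 0 level was lower there than in the knockdown.

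Promoters of 2 of these induced genes are shown because E-boxes, the CANNTG sites that myogenic factors bind, lie close to their starts. They are RefSeq sequences of build GRCm38.p6, 300 bases around the transcription start, with CANNTG in capitals, and a match is a description of letters and not a site shown to be bound. Myog is at chr1:134289754-134290053 (plus strand) and Chrng at chr1:87205561-87205860 (plus strand).
Myog: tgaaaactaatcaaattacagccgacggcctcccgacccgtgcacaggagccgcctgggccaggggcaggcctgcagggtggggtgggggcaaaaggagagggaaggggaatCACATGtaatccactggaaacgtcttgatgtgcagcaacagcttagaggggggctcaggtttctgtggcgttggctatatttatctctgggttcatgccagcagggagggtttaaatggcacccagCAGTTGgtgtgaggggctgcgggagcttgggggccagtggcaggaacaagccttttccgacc
Chrng: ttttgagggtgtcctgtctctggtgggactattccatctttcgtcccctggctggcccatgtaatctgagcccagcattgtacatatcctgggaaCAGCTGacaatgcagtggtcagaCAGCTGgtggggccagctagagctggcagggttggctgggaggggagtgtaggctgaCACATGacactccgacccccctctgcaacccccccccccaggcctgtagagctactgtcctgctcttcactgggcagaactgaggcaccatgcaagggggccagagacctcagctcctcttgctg
The Myog window holds 2 matches and the Chrng window 3, of which 2 are the palindrome CAGCTG. A promoter was found under the symbol of 8560 of the 11591 transcripts. CAGCTG occurs in 23 of 62 promoters of sarcomere genes (37.1%) and 9 of 21 promoters of excitation-contraction genes (42.9%), against 15.3% of the 10929 promoters of all expressed transcripts and 16.3% of all promoters of this length. The other E-box searched, CACCTG, occurs in 33.9% of the sarcomere promoters, 9.52% of the excitation-contraction promoters and 16.8% of those of expressed transcripts. Both are also matches of CANNTG, which occurs in 80.6%, 71.4% and 62.8%. The Mef2 motif CTAAAAATA was rare in every set. It was found in 1 of the 62 sarcomere promoters (1.61%) and 1 of the 21 excitation-contraction promoters (4.76%), against 0.284% of those of expressed transcripts.

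Genes of cell cycle exit moved both ways. Of 29 such genes, 5 rose and 3 fell (17.2% and 10.3%, against 7.76% and 7.07% of all), with a median log2 change of 0.23. The Cdk inhibitor Cdkn1a (p21) went from 724 to 1631 FPKM (1.17, interval 0.99 to 1.35), and the retinoblastoma gene Rb1 from 72.6 to 166 FPKM (1.19). Mxd4, an antagonist of Myc, rose from 61.6 to 159 FPKM, Gas1, a growth arrest gene, from 221 to 483 FPKM, and Gadd45b, a stress-induced arrest gene, from 65.2 to 136 FPKM. The falls were Rbl1, the Rb relative that E2F factors induce in dividing cells (148 to 65.3 FPKM), the inhibitor Cdkn2d (539 to 248 FPKM) and cyclin Ccnd2 (227 to 107 FPKM). Gas1 was 243 and 258 FPKM in siCtrl cells , a difference in log2 change of 1.04 (counting interval 0.66 to 1.41) that cannot be tested without replicates.

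Many transcripts for DNA replication and mitosis fell. Of 70 replication transcripts, 45 fell (64.3%, against 7.07% of all) and none rose, with a median log2 change of -1.10. Orc1, a subunit of the origin recognition complex, went from 57 to 12.5 FPKM (-2.18). Dbf4, which activates the kinase that fires origins, went from 281 to 75.3 FPKM, Gins1, a part of the replicative helicase, from 247 to 68.3 FPKM, and the cell cycle factor Mybl2 from 163 to 39.7 FPKM. The member furthest in the other direction was E2f2, named after its values were seen, at 156 and 294 FPKM, within 2-fold.

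Of 83 mitotic transcripts, 45 fell (54.2%, against 7.07% of all) and none rose, with a median log2 change of -1.04. Trip13, an ATPase of the spindle checkpoint, went from 173 to 29.6 FPKM (-2.54, interval -3.43 to -1.76). Sgol1, which protects centromeric cohesion, went from 129 to 33.6 FPKM, the kinetochore gene Spc24 from 248 to 71.0 FPKM, the condensin gene Ncapg2 from 144 to 46.3 FPKM and the spindle gene Troap from 195 to 59.6 FPKM. In siCtrl cells 54 of the replication and 72 of the mitotic transcripts fell, with medians of -1.37 and -1.36. The log2 change was less negative in siKlf5 than in siCtrl cells for 55 of 70 and 67 of 83 transcripts. On day 0 already, 13 of the 70 replication and 22 of the 83 mitotic transcripts were lower in siKlf5 than in siCtrl cells, against 47.3% of all transcripts. On day 1, 5 of the replication and 7 of the mitotic transcripts were lower, against 44.6% of all. None of these differences could be tested with 1 library a side, and the median difference in log2 change over all transcripts was 0.04.

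Promoters of a replication gene and a mitotic gene are shown for the motifs that these classes are known to carry. Mcm5 encodes a subunit of the replicative helicase and went from 363 to 158 FPKM (log2 change -1.20), and its promoter (chr8:75109259-75109558, plus strand) has the E2F motif TTTGGCGC in capitals, here on the reverse strand. Cdc20 encodes an activator of the anaphase-promoting complex and went from 753 to 443 FPKM (-0.77, within 2-fold), and its promoter (chr4:118437294-118437593, minus strand) has in capitals the cell cycle homology region TTTGAA and the CCAAT box. Both genes were chosen for display after their values were seen.
Mcm5: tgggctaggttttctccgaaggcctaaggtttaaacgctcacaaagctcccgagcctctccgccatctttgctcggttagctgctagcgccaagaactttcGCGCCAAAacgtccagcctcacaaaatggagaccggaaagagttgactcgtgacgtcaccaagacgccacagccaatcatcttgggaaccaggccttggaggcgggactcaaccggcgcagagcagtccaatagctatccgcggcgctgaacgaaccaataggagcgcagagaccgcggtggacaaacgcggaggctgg
Cdc20: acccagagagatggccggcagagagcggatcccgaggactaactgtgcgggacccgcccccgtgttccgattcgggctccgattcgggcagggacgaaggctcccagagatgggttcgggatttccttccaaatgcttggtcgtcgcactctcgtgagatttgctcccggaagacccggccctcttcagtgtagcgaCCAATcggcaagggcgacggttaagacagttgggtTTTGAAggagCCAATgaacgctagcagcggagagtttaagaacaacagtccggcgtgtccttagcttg
Over the 68 promoters of replication genes, TTTGGCGC occurs in 13.2% and the other E2F motif TTTCCCGC in 14.7%, against 0.942% and 1.99% of promoters of expressed transcripts and 0.514% and 1.07% of all promoters. Over the 76 promoters of mitotic genes, TTTGAA occurs in 61.8% and CCAAT in 75%, against 11.7% and 37.7% of promoters of expressed transcripts and 17.9% and 37.4% of all. The GC box CCGCCC, the kind of site that Klf and Sp factors bind, occurs in 75% of both sets and in 63.7% of promoters of expressed transcripts. It occurs in 29.0% of sarcomere promoters but in 57.1% of excitation-contraction promoters. For all transcripts that rose the share is 46.2%, and for those that fell 61.1%.

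Histone genes of the S-phase clusters, whose mRNAs mostly lack the poly(A) tail that the libraries were selected for, fell as well. Of 34 transcripts, 19 fell and 2 rose (55.9% and 5.88%, against 7.07% and 7.76% of all), with a median log2 change of -1.32. Among histone genes outside this list, Hist1h4n went from 191 FPKM (124 reads) to no read and Hist1h4m from 87.6 FPKM (63 reads) to none, and the counting limits nearest to 0 were -1.93 and -0.83 on the log2 scale. In siCtrl cells Hist1h4n was 171 and 88.0 FPKM. Within the list, Hist2h3b went from 119 to 9.02 FPKM in siKlf5 cells (-3.71, interval -9.10 to -1.05), and from 37.7 to 82.8 FPKM in siCtrl cells. Hist1h2ae had 63 reads on day 0 and 3 on day 1 (15.7-fold, log2 interval -14.06 to -0.45). The linker histone genes split, with Hist1h1e at 45.9 and 7.70 FPKM and Hist1h1c at 129 and 271 FPKM. Copies of these genes are nearly identical, so reads may be split among them in the count.

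**Figure D2:**
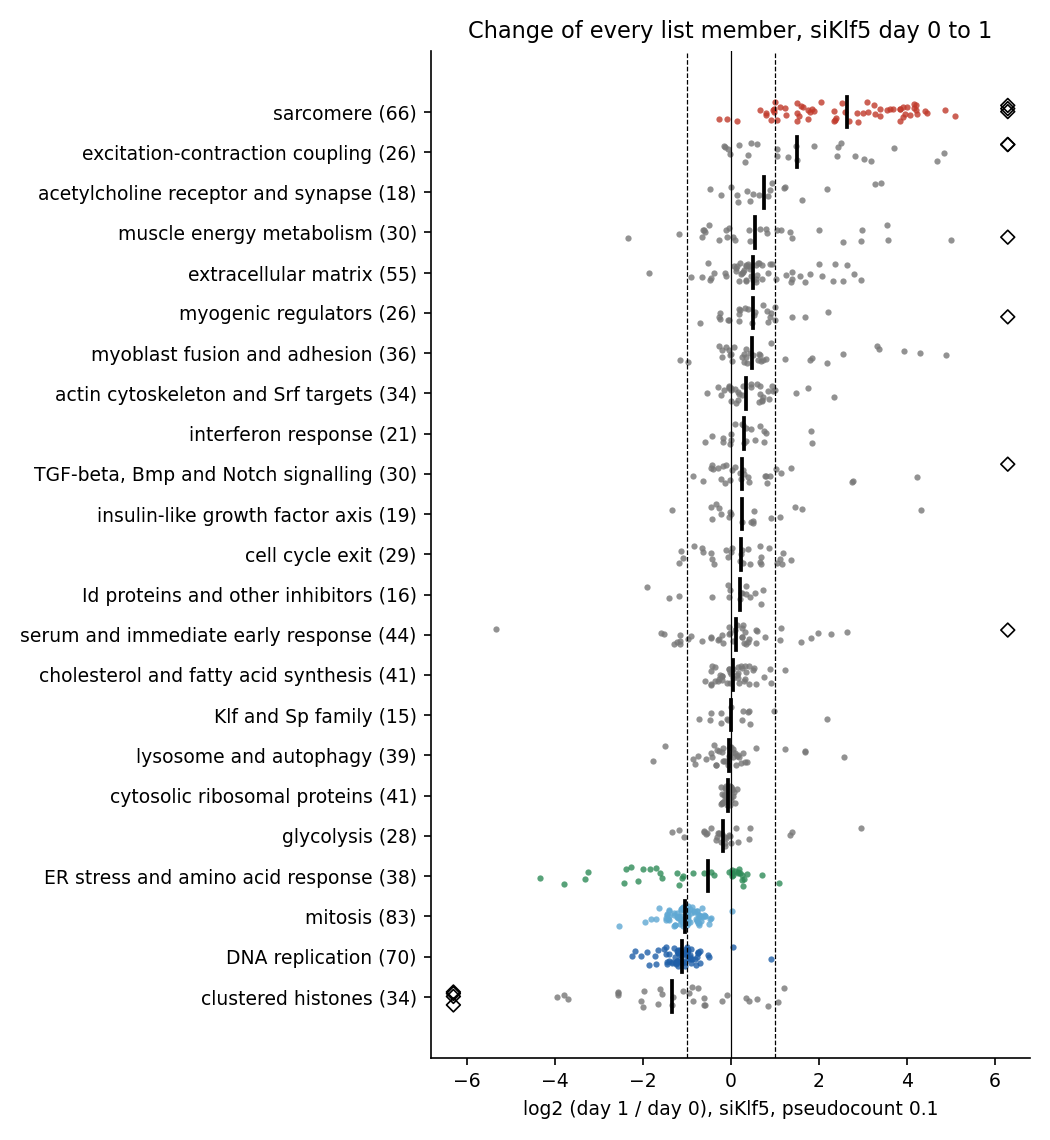
Log2 of the day 1 over the day 0 level in siKlf5 cells for every expressed member of the 23 gene lists, 1 point a transcript, with the number of members in brackets, the median as a bar and dashed lines at 2-fold. Open diamonds at the edges mark transcripts absent from 1 of the libraries. The sarcomere list is centred on 2.64, and mitosis, DNA replication and clustered histones on -1.04, -1.10 and -1.32.

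Transcripts of the amino acid response were among those that fell. This program is run by the factor Atf4 when amino acids are short or the endoplasmic reticulum is under stress, and its targets make serine, glycine and asparagine. Of 38 transcripts of the endoplasmic reticulum stress and amino acid response, 17 fell and 1 rose. These are 44.7% and 2.63%, against 7.07% and 7.76% of all. The list was split, with a median log2 change of -0.52 and 16 of the 38 above 0. Trib3, a pseudokinase that restrains Atf4, went from 194 to 9.53 FPKM, a 20.4-fold fall (-4.33) on 710 and 26 reads. Aldh1l2, a mitochondrial folate enzyme, was 279 FPKM on day 0 and fell 14-fold (-3.80, interval -4.42 to -3.24). Asparagine synthetase Asns went from 621 to 65.8 FPKM (-3.24, -3.85 to -2.68), and Chac1, which breaks down glutathione, from 226 to 22.5 FPKM (-3.32, -4.59 to -2.29). These 4 transcripts were among the 12 largest falls of coding transcripts with at least 60 reads.

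Other members of the list fell with them. Mthfd2, the mitochondrial folate enzyme of proliferating cells, went from 642 to 119 FPKM (log2 change -2.43). The serine genes Phgdh and Psph, the glycine gene Shmt2 and the factor Atf5, named after their values were seen, went from 885 to 221, 272 to 52.5, 986 to 205 and 591 to 165 FPKM. Fgf21, a secreted hormone, was the 1 transcript that rose, from 29.1 to 62.1 FPKM, with an interval that includes 0 (-0.28 to 2.56). In siCtrl cells Fgf21 went from 24.8 to 214 FPKM, a larger rise. In siCtrl cells 12 of the 38 fell, with a median of -0.23. Asns was 636 and 178 FPKM there, Trib3 178 and 37.4 FPKM and Chac1 256 and 98.7 FPKM. Day 0 levels of these 3 genes were close in the pair of siRNAs, and day 1 levels were lower in the knockdown, by log2 differences in change of -1.40, -2.09 and -1.94, whose counting intervals exclude 0. By days 2 and 3 the order had turned for Asns, at 257 and 223 FPKM in siKlf5 cells and 80.6 and 141 FPKM in siCtrl cells, and for Trib3, at 38.2 and 23.7 against 9.75 and 16.5 FPKM.

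The Asns promoter (chr6:7693160-7693459 of GRCm38.p6, minus strand) is shown because Asns is the classical target of this response. The capitals mark TGATGNAA, the letters of the composite element that Atf4 and its C/EBP partners bind, a motif that was added after the values were seen.
Asns: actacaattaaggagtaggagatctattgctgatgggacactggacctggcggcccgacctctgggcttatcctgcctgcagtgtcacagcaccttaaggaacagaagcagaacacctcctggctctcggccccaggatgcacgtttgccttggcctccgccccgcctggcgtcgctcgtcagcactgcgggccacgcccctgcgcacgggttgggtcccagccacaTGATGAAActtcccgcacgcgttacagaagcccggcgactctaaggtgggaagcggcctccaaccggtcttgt
This motif occurs in 6 of 36 promoters of the stress and amino acid list (16.7%), against 2.15% of promoters of expressed transcripts and 3.97% of all promoters.

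Inhibitors of differentiation did not decline as a group. Of 16 such transcripts 3 fell (18.8%, against 7.07% of all) and none rose, with a median log2 change of 0.21. The falls were the Id genes, whose proteins sequester E-proteins. Id1 went from 192 to 51.6 FPKM (-1.90), Id2 from 139 to 52.1 FPKM (-1.41) and Id3 from 329 to 146 FPKM (-1.18, -1.82 to -0.57). In siCtrl cells Id3 went from 424 to 76.5 FPKM, so that its day 1 level was higher in the knockdown. Hes6, a Hes family gene that favours differentiation, was 247 and 414 FPKM, and Sox9 was 145 and 236 FPKM, both within 2-fold.

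Immediate early genes, which serum and growth factors switch on within minutes, moved both ways. Of 44 transcripts of this list 8 rose and 8 fell (18.2% each, against 7.76% and 7.07% of all), with a median log2 change of 0.12. Members of the Egr family of zinc-finger factors rose. Egr1 went from 131 to 517 FPKM (1.98, interval 1.68 to 2.29), Egr3 from 10.8 to 68.0 FPKM (2.64) and Egr2 from no read to 27.3 FPKM on 108 reads, with a lower counting limit of 2.56. In siCtrl cells Egr1 was 178 and 236 FPKM, and Egr2 was 8.41 and 9.74 FPKM. Spry1, an inhibitor of receptor tyrosine kinase signalling, went from 37.1 to 132 FPKM, much as in siCtrl cells (24.7 to 88.8 FPKM). The falls included the AP-1 subunit Fosl1, from 420 to 148 FPKM (-1.51), which also fell in siCtrl cells (549 to 226 FPKM). Another AP-1 subunit, Fos, rose from 4.29 to 21.2 FPKM (2.28, interval 0.27 to 4.99). Both were named after their values were seen. The chemokine gene Cxcl1 went from 61 reads to 1 read (45.5-fold, log2 interval -35.58 to -0.63).

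Targets of serum response factor in the actin cytoskeleton mostly stayed within 2-fold (median log2 change 0.36). Of 34, 4 rose (11.8%, against 7.76% of all) and none fell. The 4 were the smooth muscle actins Acta2 (395 to 1346 FPKM) and Actg2 (14.2 to 73.0 FPKM), the actin-binding gene Tagln (53.1 to 148 FPKM) and the crosslinker Lima1 (492 to 988 FPKM). Tagln went the other way in siCtrl cells, from 79.2 to 28.2 FPKM, and Actg2 was 39.8 and 26.3 FPKM there. Acta2 rose under both siRNAs.

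**Figure D3:**
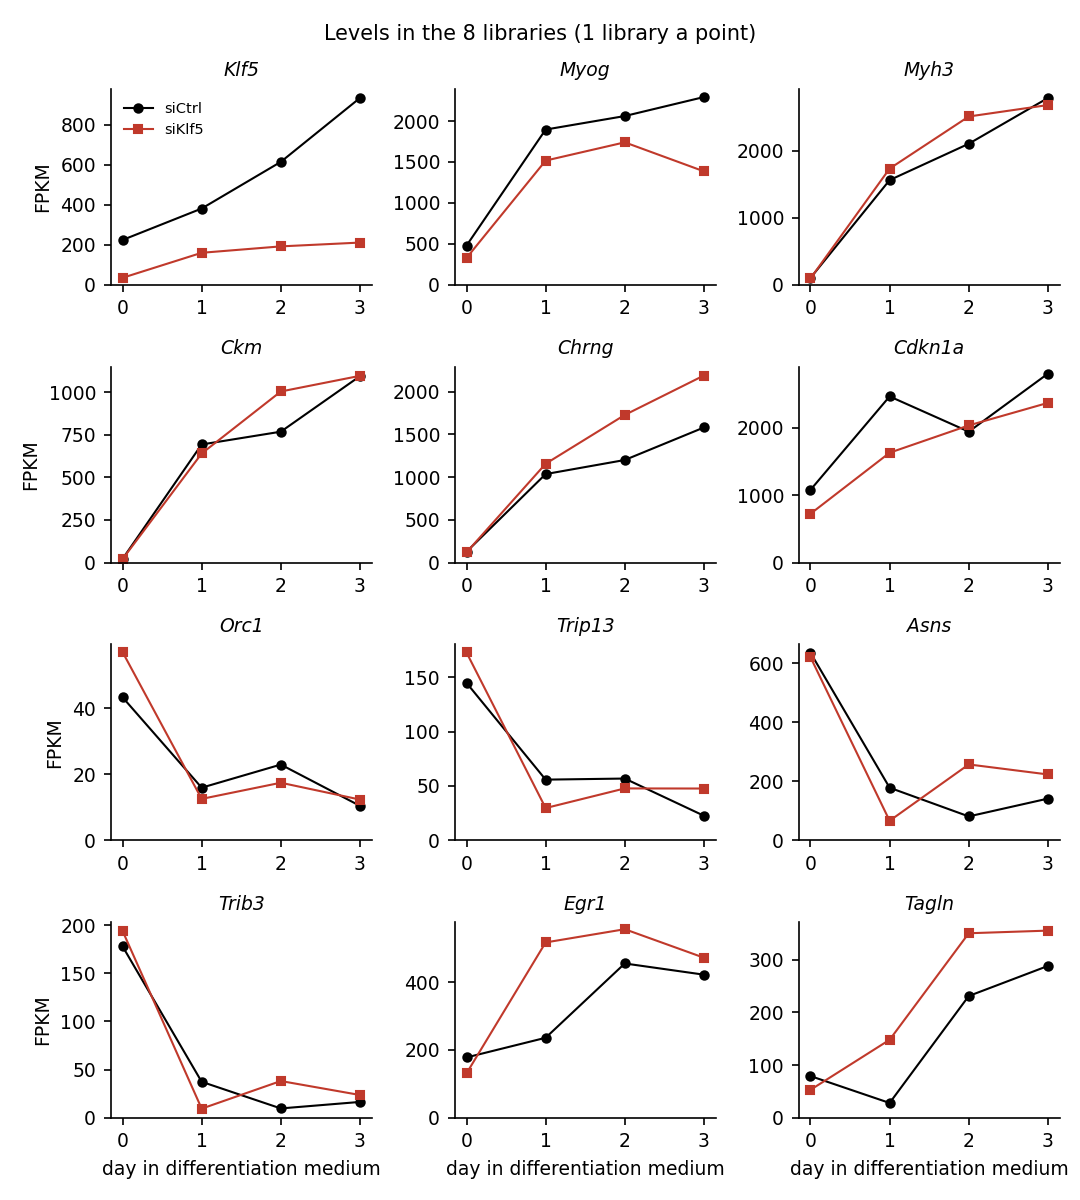
FPKM level of 12 genes in each of the 8 libraries, by day in differentiation medium, with siCtrl in black circles and siKlf5 in red squares; 1 library a point and no error. Myh3 and Ckm run close together under both siRNAs, Asns and Trib3 reach their lowest siKlf5 level on day 1 (65.8 and 9.53 FPKM), and Egr1 reaches 517 FPKM in siKlf5 and 236 FPKM in siCtrl cells on day 1.

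Several genes of the extracellular matrix rose. Of 55 transcripts, 16 rose (29.1%, against 7.76% of all) and 1 fell, with a median log2 change of 0.51. The collagen VI genes Col6a2 and Col6a1 went from 24.0 to 189 FPKM (2.97, interval 2.38 to 3.63) and from 91.8 to 461 FPKM. The proteoglycans Dcn and Aspn went from 60.5 to 380 FPKM and from 2.89 to 20.6 FPKM, and the protease Adamts5 from 9.12 to 48.0 FPKM. Nid2, which links laminin to collagen IV in basement membranes, went from 42.2 to 247 FPKM (2.55), against 51.0 to 118 FPKM in siCtrl cells. The 1 fall was Fbln5, at 22 and 4 reads with an interval that includes 0.

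Insulin-like growth factor 2, an autocrine signal of differentiating myoblasts, had the largest rise of the insulin-like growth factor list. Igf2 went from 19 to 384 FPKM, a 20.2-fold rise (4.33, interval 3.70 to 5.05), and the neighbouring noncoding RNA H19 from 2718 to 5952 FPKM (1.13). The binding proteins Igfbp3 and Igfbp4 went from 13.6 to 37.6 FPKM and from 28.2 to 87.4 FPKM. Foxo1, the forkhead factor that insulin signalling restrains, was the 1 fall among 19 transcripts (5.26%, against 7.07% of all). It went from 28.6 to 11.4 FPKM (-1.33, -2.31 to -0.45), while in siCtrl cells it was 14.8 and 26.4 FPKM.

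In the TGF-beta, Bmp and Notch list 7 of 30 rose (23.3%, against 7.76% of all) and none fell, with a median log2 change of 0.26. The myostatin and activin antagonist Fst went from 1.97 to 39.1 FPKM (4.24, interval 2.05 to 8.18), and the activin subunit Inhbb from 24.3 to 165 FPKM. Of the Notch genes on the list 3 rose, with the ligand Dll1 at 24.7 and 54.5 FPKM, the receptor Notch3 at 176 and 460 FPKM and the target Heyl at 41.9 and 287 FPKM, whereas Notch1, Notch2, Jag1, Jag2, Hey1, Hes1, Lfng and Numb were within 2-fold. Heyl was 38.9 and 196 FPKM in siCtrl cells. Bmp4 had no read on day 0 and 16 reads on day 1 in siKlf5 cells, and its interval includes 0.

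Genes of lipid synthesis mostly stayed within 2-fold, and the glycolysis list moved both ways. Of 41 genes of cholesterol and fatty acid synthesis 1 rose (2.44%, against 7.76% of all) and none fell. The rise was the sterol reductase gene Tm7sf2 (33.9 to 79.7 FPKM). The median log2 change of these 41 genes was 0.06 against 0.42 in siCtrl cells, where 5 rose. Acsl3 and Idi1, of fatty acid activation and isoprenoid synthesis, were 266 and 495 and 209 and 396 FPKM, just within 2-fold. The glycolysis list of 28 genes also holds Hif1a, Vegfa, Bnip3 and Egln3, which are not glycolytic enzymes. Of the 28, 3 rose and 3 fell (10.7% each, against 7.76% and 7.07% of all), with a median of -0.17 against 0.31 in siCtrl cells. The rises were the muscle isoforms Pgam2 and Pfkm (205 to 522 FPKM) and the lactate dehydrogenase Ldhb (36.3 to 94.9 FPKM), and the falls were Hk2, the regulator Pfkfb3 (19 to 7.46 FPKM) and the lactate transporter Slc16a3 (120 to 57.4 FPKM). On day 0, 15 of the 41 lipid genes and 18 of the 28 genes on the glycolysis list were lower in siKlf5 than in siCtrl cells, against 47.3% of all transcripts. On day 1, 35 and 24 were lower, against 44.6% of all. These differences between siRNAs could not be tested.

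Several groups stayed near their starting level. Of 21 interferon response genes 2 rose (9.52%, near the 7.76% of all) and none fell. The rises were Xaf1 (6.48 to 23.2 FPKM) and Gbp2 (9 and 25 reads). Of 39 lysosome and autophagy genes 4 rose and 2 fell (10.3% and 5.13%), near the shares of all transcripts (7.76% and 7.07%), with a median log2 change of -0.03, which is 0.05 after centring on the median of all transcripts. Those rises included the ubiquitin ligase Fbxo32, which acts in muscle atrophy, from 14.5 to 87.2 FPKM and the autophagosome gene Map1lc3a from 162 to 520 FPKM, with Wipi1 from 188 to 440 FPKM and Ctsf on 22 and 54 reads. The lysosomal glycoprotein gene Gpnmb fell from 87.3 to 25.6 FPKM, and Cd68 went from 34 to 9 reads. None of 41 cytosolic ribosomal protein genes moved by 2-fold, and their log2 changes ran from -0.22 to 0.14.

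Klf5 was the 1 member of the Klf and Sp family that rose, out of 15 expressed (6.67%, near the 7.76% of all). Klf11, a relative that acts downstream of TGF-beta, was 34.3 and 68.5 FPKM (0.99, interval 0.40 to 1.61), against 64.7 and 66.5 FPKM in siCtrl cells. Klf2, Klf3, Klf4 and Klf6, the more abundant members, were 277 and 365, 211 and 285, 514 and 491, and 401 and 478 FPKM. Klf7, Klf9, Klf10, Klf13 and Klf16 were also within 2-fold, from -0.72 for Klf16 to 0.42 for Klf7. Klf1, Klf8, Klf14, Klf15 and Klf17 had no read in either siKlf5 library, and Klf12 was 7.33 and 6.16 FPKM, below the filter.

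The 12 largest rises of coding transcripts with at least 60 reads mixed muscle genes with others. Besides Myoz2, Pvalb, Rbfox1 and Tnni2 they were the thin-filament gene Lmod1 (2 to 99 reads, 66.4-fold, log2 interval 2.17 to 20.98), the zinc-finger gene Casz1 (3 to 112 reads, 50.1-fold, 2.26 to 15.69), the sugar transporter gene Slc2a6 (1.84 to 126 FPKM, 68.2-fold), the chymotrypsinogen gene Ctrb1 (2 to 144 reads, 96.5-fold, 2.76 to 21.50), Egr2, and 3 genes with no read on day 0. These were the chemerin receptor gene Cmklr1 (30.4 FPKM on day 1, lower log2 limit 2.66), the chloride channel gene Best1 (22.1 FPKM, limit 1.62) and Ctxn3 (31.7 FPKM, limit 1.64). All of them were also higher on day 1 than on day 0 in siCtrl cells, not always clearly. Egr2 was 8.41 and 9.74 FPKM there, with an interval that includes 0 (-1.57 to 1.91). The 12 largest falls held, besides the 4 stress genes, 4 histone genes and Cxcl1, the matrix gene Tinagl1 (46.7 to 3.48 FPKM), the lipoic acid gene Lipt2 (29.7 to 2.45 FPKM) and Gm10639, a glutathione transferase-like gene (255 to 18.2 FPKM).

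Many of these changes were shared with control cells. Of the 900 transcripts that rose in the knockdown, 479 (53.2%) also rose in siCtrl cells, and they made up 71.1% of the rises there. Of the 819 that fell, 426 (52.0%) fell in siCtrl cells as well, or 41.6% of the falls there. Of the same 900, 49 (5.44%) fell in siCtrl cells, and of the 819, 23 (2.81%) rose there. Over all 11591 transcripts, 5.81% rose and 8.84% fell in siCtrl cells, so neither opposite set exceeded its share of all. Over 9754 transcripts with at least 60 reads in all 4 libraries, the correlation of the log2 changes was 0.75 (Pearson) and 0.65 (Spearman), and over all 11591 it was 0.45 and 0.59. These describe transcripts, which are not independent replicates, and no p is attached to them.

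**Figure D4:**
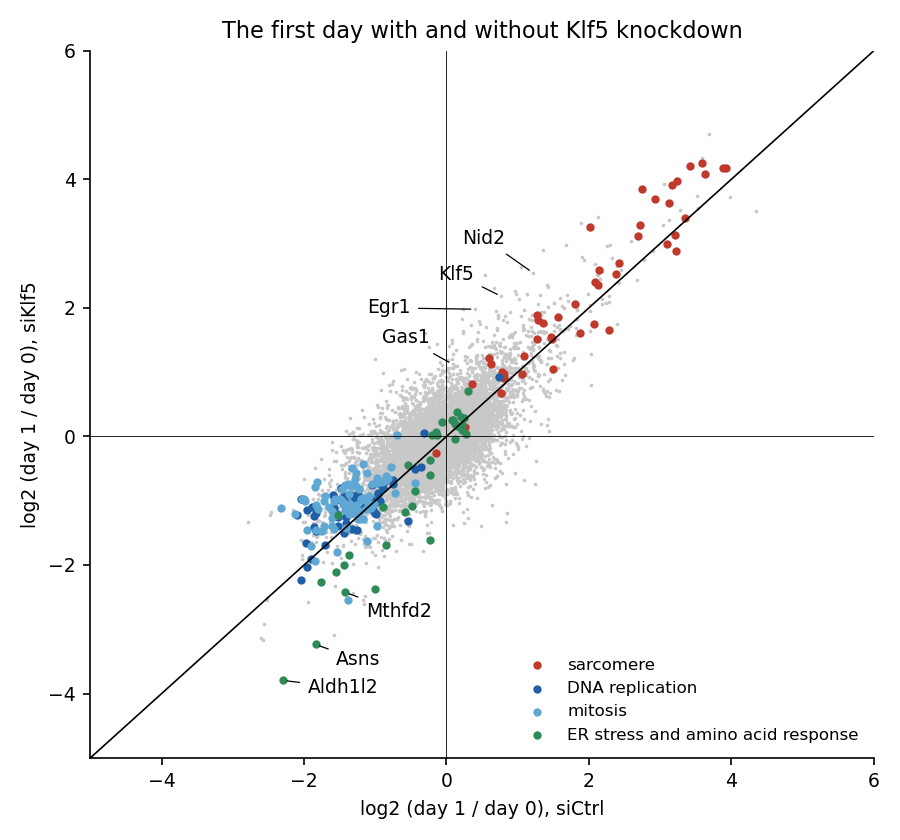
Log2 change from day 0 to day 1 in siCtrl cells (x axis) and siKlf5 cells (y axis) for the 9754 transcripts with at least 60 reads in all 4 libraries, with the line of equal change. Sarcomere points (red) lie along the line at the upper right, most replication and mitosis points (blue) lie above it at the lower left, and Asns, Aldh1l2 and Mthfd2 (green) lie under it.

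The muscle lists differed in where they started and how far they went. The log2 change was larger in siKlf5 than in siCtrl cells for 46 of 66 sarcomere, 21 of 26 regulator and 16 of 26 excitation-contraction transcripts, and for 15 of 30 transcripts of muscle energy metabolism. The median difference in these lists was 0.25, 0.30, 0.08 and 0.00. Over all transcripts it was 0.04, so a larger change in siKlf5 cells was common and the last 2 lists were near all transcripts. On day 0, 42 of 66 sarcomere, 18 of 26 regulator, 15 of 26 excitation-contraction and 11 of 30 energy transcripts were lower in siKlf5 than in siCtrl cells, against 47.3% of all transcripts, and on day 1, 33, 7, 13 and 15 were. The change and the day 0 level share the day 0 libraries, so a low day 0 value by itself enlarges the change. Actc1 was an example, at 101 FPKM in siKlf5 and 188 FPKM in siCtrl cells on day 0 and at 1924 and 2273 FPKM on day 1. Casq2 was likewise 31.5 and 75.8 FPKM on day 0 and 824 and 980 FPKM on day 1.

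**Figure D5:**
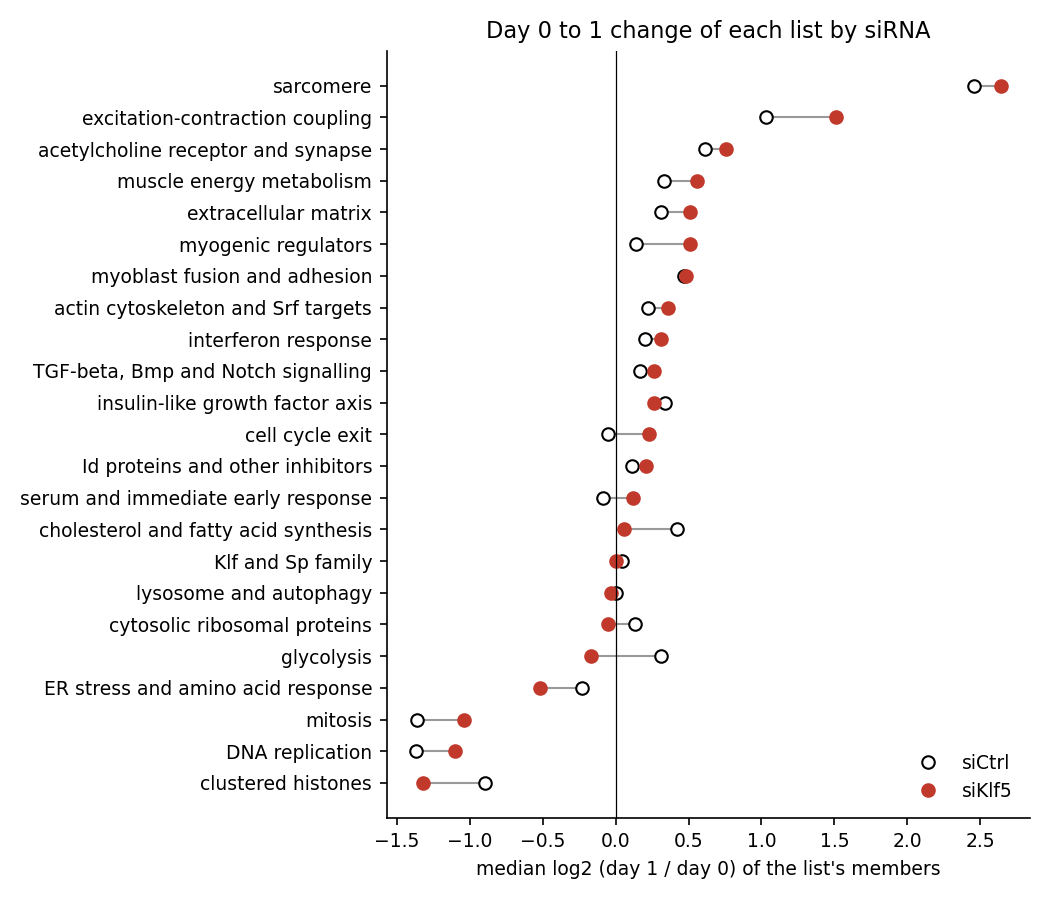
Median log2 change from day 0 to day 1 of the expressed members of each gene list in siCtrl cells (open circles) and siKlf5 cells (red circles). Muscle lists lie to the right and DNA replication, mitosis and clustered histones to the left under both siRNAs, and glycolysis lies on opposite sides of 0, at 0.31 and -0.17.

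The difference in log2 change, siKlf5 minus siCtrl, was ranked over coding transcripts with at least 60 reads in 1 of the 4 libraries and a counting interval that leaves out 0, and many of the transcripts at its ends were absent from 1 library. The 8 most positive differences were those of Pvalb, Egr2, Myoz2, Cmklr1, Dhrs7c (a reductase of the sarcoplasmic reticulum, with no read on day 0 and 33.6 FPKM on day 1), Zfp119b, C1ra and Mt2. The complement protease gene C1ra was 7.53 and 29.5 FPKM in siKlf5 and 9.98 and 4.26 FPKM in siCtrl cells. For the metallothionein gene Mt2 it was siCtrl that moved, from 315 to 26.9 FPKM, whereas siKlf5 cells had 391 and 283 FPKM. Zfp119b was 16.6 and 12.3 FPKM in siKlf5 cells and 16.1 and 0.413 FPKM in siCtrl cells. The 8 most negative differences were those of Hist1h4n and Hist1h4m, for Rab30 (17.2 FPKM to no read, against 18.3 and 22.3 FPKM), Tigit (14.6 FPKM to no read, against 56.3 and 33.4 FPKM) and Cck (20.4 FPKM to no read, against 49.6 and 13.6 FPKM), and for Tceal7, Fn3k and BC051019. The last 3 rose under both siRNAs, with no read on day 0 in siCtrl cells and 27, 9 and 4 reads in siKlf5 cells.

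Markers of other cell types ranged from almost none to clearly measured. Of 6 endothelial markers 3 had no read in either siKlf5 library, and their summed level was 0.826 and 2.12 FPKM on days 0 and 1. For immune markers the sum was 30.6 and 33.2 FPKM, nearly all of it Lyz2. Of the adipocyte markers Adipoq, Plin1 and Retn had no read and Pparg went from 133 to 33.7 FPKM. Fibroblast markers summed to 14.9 and 66.0 FPKM, with 4 of 6 rising and Thy1 at 0 in both, and osteoblast and cartilage markers to 13.8 and 32.7 FPKM. Neuronal markers summed to 516 and 557 FPKM, which was Tubb3 and Map2, with the other 4 at 0, and smooth muscle markers to 1542 and 2354 FPKM, mostly Des and Smtn. Muscle markers summed to 3092 and 8877 FPKM. The part of other cells in the changes above was not tested.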

How the data were processed

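Poly(A) RNA of C2C12 cells was sequenced in paired ends, with 1 library for each siRNA and day. Per the labels and methods, the authors aligned reads to mm9 with STAR and counted them in the exons of 1 transcript per gene with HOMER, on both strands, keeping no more than 3 reads at a position, and deposited FPKM values scaled to a matrix total of 10000000. Reads of a gene and its antisense partner therefore cannot be told apart. The authors also deposited log2 columns of these values, which served as an alternative for siCtrl, and 1 column of values that names no day was not used. The study's normalised counts were not used, and the ChIP-seq of the series was not analysed here.

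Reads were recovered as FPKM times exon length, taken as whole within 0.1, and 6 of them were counted as 1 event because transcripts with 6 reads were 2.83 to 10.0 times as many as those with 5 in the 8 libraries. Exact Clopper-Pearson intervals (95%) for the share of day 1 events follow from these. The interval of a difference between siRNAs is instead a normal approximation (95%) from the events of the 4 libraries, around the difference of the log2 changes. For a transcript with no read in 1 library its centre depends on the 0.1 added. For a transcript with no read in 1 library, the limit of this interval nearest to 0 is printed in place of a fold, and list medians were repeated with 3 reads in that library. Intervals cover counting error only, and no spread between cultures can be estimated. The log2 change is on the log2(FPKM + 0.1) scale, which understates changes of low genes. A printed fold is the plain ratio of the FPKM values, without the 0.1, so for low genes it exceeds what the log2 change gives. The scripts were tested on simulated data and ran under Python 3.11.15 with scipy 1.17.1 for intervals, numpy 2.4.6 and pandas 2.3.3 for tables, and matplotlib 3.10.9 for plots.

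The genes named were Klf5, Myog, Myh3, the muscle markers and the Klf family, the 12 largest rises and falls of NM transcripts with at least 60 reads, the 5 largest changes in each list on at least 60 reads with up to 2 in the other direction, and the 8 largest differences between siRNAs on each side, for NM transcripts with at least 60 reads in 1 of the 4 libraries and an interval that leaves out 0. All other genes named were chosen after their values were seen, among them Pax7, Gadd45b, Ccnd2, Colq, Sgcd, Ryr1, Atp2a1, Fosl1, Fbln5, Col6a1, Bmp4, Slc16a3, Gbp2, Ctsf, Cd68, Phgdh, Psph, Shmt2, Atf5, E2f2, Mcm5 and Cdc20. Some results are not reported here. The transcripts and lists were chosen with earlier results of these data known. Promoters are those of RefSeq for GRCm38.p6, searched on both strands.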

Additional observations from a re-analysis of the deposited data

Results flagged for a closer look

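Results are given here where knockdown and control cells moved in opposite directions on the first day, for a list whose medians were both at least 0.1 from 0, or for a named gene past 2-fold both ways with a counting interval of the difference that leaves out 0. With 1 library for each siRNA and day, none of these differences was tested. The median log2 change of the 28 genes on the glycolysis list, which is not limited to glycolytic enzymes, was -0.17 in siKlf5 and 0.31 in siCtrl cells. The actin-binding gene Tagln had a log2 change of 1.48 in siKlf5 and -1.49 in siCtrl cells. The complement protease gene C1ra had 1.95 and -1.21. The histone gene Hist2h3b had -3.71 and 1.13, on 106 reads falling to 6 in siKlf5 cells, and its reads may be split among near-identical copies.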

How the results depend on the processing

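The count of transcripts past 2-fold followed the filter and the fold. In siKlf5 cells it was 2567 rises and 2491 falls with no filter, 1701 and 1478 with a mean of at least 1 FPKM, 436 and 388 with a mean of at least 50, 1643 and 2038 at 1.5-fold, and 530 and 268 at 3-fold. In siCtrl cells these were 2241 and 2819, 1343 and 1792, 323 and 515, 1344 and 2338, and 372 and 364. With other pseudocounts, scalings, a minimum of 60 reads, or the filter on the compared libraries, the counts stayed within 1.5 times, and so they did without exons under 200 bp, an alternative added after seeing the data. The rises were 52.4% of the called transcripts in siKlf5 cells, and 59.8% after median centring or 61.2% after upper-quartile scaling, against 39.7% and 49.3% in siCtrl cells under either scaling. List medians near 0 changed sign under those scalings, lysosome and autophagy to 0.05 and 0.08, the Klf and Sp family to 0.09 and 0.11 and ribosomal proteins to 0.03 and 0.06. The median difference between siRNAs, 0.04, was 0.01 after centring. The alternative of the deposited log2 columns could be run for siCtrl only. Within this day 0 to 1 comparison no paired analysis was possible because each siRNA and day had 1 library. Leaving out a replicate was not possible for the same reason. Low counts limit the rare transcripts most.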

Other observations

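Some gene groups outside the lists above were looked at after their values were seen, and are given as values only. Of 30 genes of glutathione and oxidant defence, 15 fell in siKlf5 cells (50%, against 7.07% of all) and none rose. Their median log2 change was -1.01, against -0.83 in siCtrl cells, where 12 fell. The quinone reductase gene Nqo1 went from 657 to 86.4 FPKM and the glutathione transferase gene Gsta1, which has near-identical copies, from 1025 to 114 FPKM. Of 20 cytosolic aminoacyl-tRNA synthetases, which charge tRNAs with amino acids, 9 fell (45.0%, against 7.07% of all) and none rose. Their median was -0.99, whereas 1 fell in siCtrl cells with a median of -0.60. The change was higher in siKlf5 than in siCtrl cells for 3 of the 20, and the median difference over all transcripts was 0.04. The 4 proliferin entries, placental hormone relatives that are near-identical to one another, fell under both siRNAs, with medians of -2.85 in siKlf5 and -1.38 in siCtrl cells. They are not 4 separate signals, because Prl2c3 and Prl2c4 lie at overlapping positions with nearly the same reads. Prl2c5 had 42 and 3 reads in siKlf5 cells, and its interval includes 0 under both siRNAs (-13.52 to 0.29 in siKlf5 cells). Prl2c2 went from 947 to 111 FPKM.

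Of 6 expressed complement genes 4 rose in siKlf5 cells (66.7%, against 7.76% of all) with a median log2 change of 1.84. In siCtrl cells 2 rose and the median was 0.69. Another 11 complement genes were below the filter, and with them the siKlf5 median was 0.00. Among the 4 rises, C1rb had 17 and 43 reads with an interval that includes 0 (-0.39 to 4.42). Serping1 changed about as much in siCtrl cells (log2 change 1.95 in siKlf5 and 2.02 in siCtrl cells). The 2 expressed metallothionein genes stayed within 2-fold in siKlf5 cells, with a median of -0.50, and fell in siCtrl cells, with a median of -3.29. The selenium carrier gene Sepp1 went from 11.6 to 179 FPKM in siKlf5 cells and from 18.1 to 43.9 FPKM in siCtrl cells. None of these differences between siRNAs was tested.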
